A study of Mus musculus with 4 samples.

Results

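The immunity-related GTPases are a family of interferon-induced proteins of mouse cells, and 6 of their genes were followed here: Iigp1, Tgtp1, Ifi47, Igtp, Irgm1 and Irgm2. They were chosen by name, with earlier results of these data known. Every probe set (the group of short probes that reports 1 transcript on an Affymetrix array) that the platform annotation assigns to them was taken. This gave 7 probe sets of the 10649 with values, 2 of them for Iigp1. The Tgtp1 probe set is also assigned to Tgtp2, a near-identical copy within the family, so its signal may come from either gene and is written Tgtp1/Tgtp2.

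RNA came from macrophages labelled PPARg WT (WT) and PPARg KO (KO), both of mixed 129/SV and C57BL/6 background, with 2 arrays for each genotype. The cells were peritoneal macrophages elicited with 2.5 ml of thioglycollate at 3%, a sterile irritant that recruits monocytes to the cavity, where they mature, and collected on day 3. Both genotypes were plated in 10% serum for 5 h and then held in 0.5% serum over 24 h, with no ligand or stimulus named. The labels used here give neither the allele nor any Cre driver, the age of the mice, or whether replicate arrays stand for separate animals, and replicate 2 of each genotype carries a label of duplicate. The p-values therefore reflect array-to-array spread that could be technical only.

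Pparg encodes PPARγ, a nuclear receptor that binds fatty acid derivatives and, in macrophages, both activates lipid genes and restrains inflammatory ones. Immunity-related GTPases are switched on by interferon-γ, in part through the transcription factor IRF1, and defend cells against parasites and bacteria that live inside membrane-bound vacuoles. The effector proteins, which include the products of Iigp1 (Irga6), Tgtp1 (Irgb6) and Ifi47 (Irgd), bind GTP, assemble on the vacuole and break its membrane. The regulator proteins Irgm1, Irgm2 and Igtp (Irgm3) sit on the cell's own membranes and hold the effectors in their inactive form, so that loss of a regulator misdirects the effectors.

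Apart from Iigp1, the genes lie in 2 separate groups on chromosome 11. In the order of coding genes along it (RefSeq annotation of GRCm38.p6), Igtp and Irgm2 are consecutive at positions 398 and 399, and Irgm1, Tgtp1, Tgtp2 and Ifi47 are at positions 256, 261, 263 and 264. The arrays come with no named build, and the annotation served for gene order and for the promoter sequences of the reference.

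The promoters are shown because most of them share an interferon motif. The motif was not used to choose the genes, but the family is known as interferon-induced, so the motif is not independent of that choice. RefSeq windows (GRCm38.p6, 250 bases before to 50 after each transcript start) were found for Irgm1, Irgm2, Igtp, Tgtp1, Tgtp2 and Ifi47, 6 in all, and no window was used for Iigp1. Both strands were searched for the interferon-stimulated response element bound by IRF factors (GAAA repeated after 2 bases of any kind) and for the direct repeat bound by PPAR and its partner RXR (AGGTCA repeated after 1 base of any kind). The 100 bases before each start follow, 5′ to 3′ on the gene's strand, with letters in capitals where the response element matched.
Irgm1 (chr11:48871421-48871520, minus strand): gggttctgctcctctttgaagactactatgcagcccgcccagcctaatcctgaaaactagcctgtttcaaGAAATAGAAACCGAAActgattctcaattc
Irgm2 (chr11:58214877-58214976, plus strand): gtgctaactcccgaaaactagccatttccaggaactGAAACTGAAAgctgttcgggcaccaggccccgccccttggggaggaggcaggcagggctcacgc
Igtp (chr11:58199456-58199555, plus strand): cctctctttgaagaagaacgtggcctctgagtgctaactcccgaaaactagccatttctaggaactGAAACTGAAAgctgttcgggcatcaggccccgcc
Tgtp1 (chr11:48992247-48992346, minus strand): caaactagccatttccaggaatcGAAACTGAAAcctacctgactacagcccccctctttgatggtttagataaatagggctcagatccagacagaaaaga
Tgtp2 (chr11:49064213-49064312, minus strand): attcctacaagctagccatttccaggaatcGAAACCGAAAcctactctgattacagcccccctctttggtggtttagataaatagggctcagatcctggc
Ifi47 (chr11:49076487-49076586, plus strand): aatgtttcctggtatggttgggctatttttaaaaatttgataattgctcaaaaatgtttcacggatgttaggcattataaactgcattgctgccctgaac

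The response element was found in 5 of these 6 windows (not in that of Ifi47), against 3.44% of all 32851 promoter windows of the reference. It lay 34 to 25 bases before the start in Igtp, 64 to 55 in Irgm2, 77 to 68 in Tgtp1 and 70 to 61 in Tgtp2, on the gene's own strand in each. Irgm1 carried 2 overlapping response elements, 30 to 21 and 24 to 15 bases before its start. Igtp and Irgm2 shared an unbroken run of 29 bases that covers the response element. The direct repeat was found in 0 of the 6 windows and in 0.0396% of all windows. A match is a description of letters and not of binding, and the copies within the family are not independent of each other.

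Signals are intensity units on a linear scale, and means are given ± SD (n = 2). Each difference is the KO mean less the WT mean of log2(signal + 16), with its standard error (SE), folds are taken on that scale, and adjusted p-values are those of limma with Benjamini-Hochberg adjustment over all 6389 tested probe sets. Array medians ran from 136.7 to 142. The Pparg probe set was dim, with WT signals of 61.1 and 73.1 and KO signals of 43.0 and 40.6 (log2 difference -0.52, adjusted p = 1.20e-04 by limma without a signal filter). All 4 of these signals lay below the median of the antisense controls of their array, and the labels used here do not say which exons the knockout removes, so the probe set is a weak check of genotype.

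Every member was lower in KO. All 7 probe sets passed the signal filter, all 7 were past an adjusted p of 0.05 in the downward direction, and 0 rose, whereas 2.54% of all tested probe sets were called lower and 1.02% higher. That balance depended on the arrays: 124 probe sets were called lower and 127 higher without KO replicate 1, 285 and 42 without KO replicate 2, 54 and 18 without WT replicate 1, and 48 and 6 without WT replicate 2. The log2 differences of the 7 family probe sets ran from -2.51 to -0.59 with a median of -1.03, beside a median of -0.02 over all tested probe sets. At all 7 the KO arrays lay wholly below the WT arrays, as they did at 21.1% of tested probe sets. Among the 22 probe sets called lower by 2-fold or more (0.344% of those tested), 4 belonged to the family, from the genes Iigp1, Tgtp1/Tgtp2 and Igtp. The family was chosen with earlier results of these data known, so these shares are a description and not a test of it. In bulk RNA, fewer cells making a transcript and less transcript per cell cannot be told apart.

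**Figure D1:**
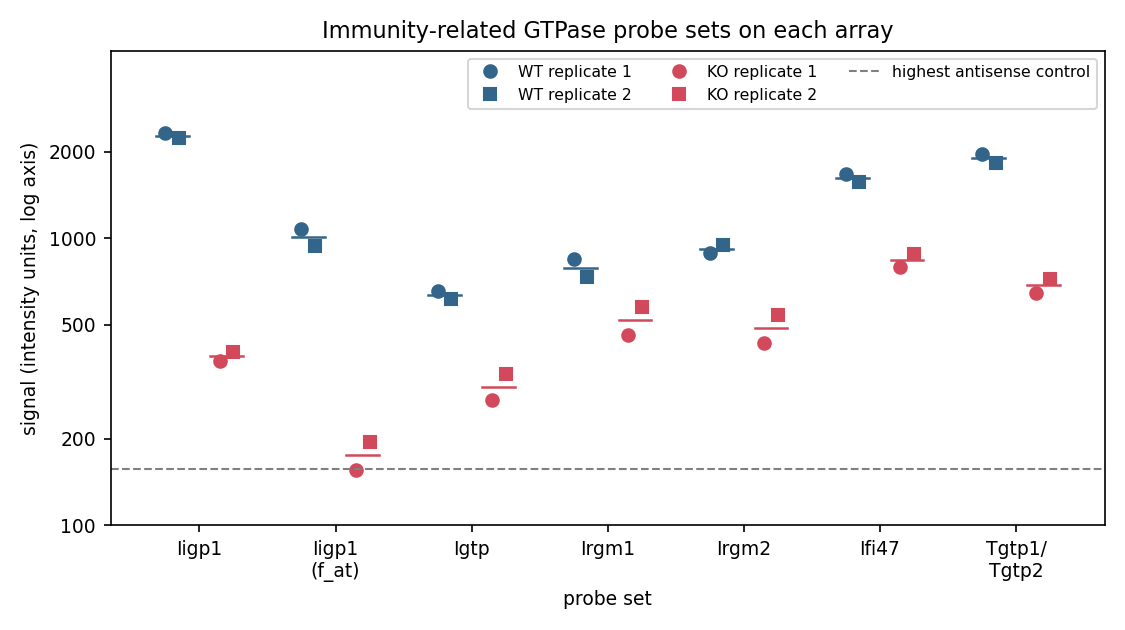
Signal of the 7 probe sets on each array (intensity units, log axis; WT blue, KO red; circles replicate 1, squares replicate 2; short lines group means; dashed line the highest antisense control of any array, 156.7). Both KO arrays lie below both WT arrays at each probe set; KO replicate 1 of the second Iigp1 probe set, at 155.7, is the only point at the dashed line, and it exceeds the highest antisense control of its own array, 150.1.

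Among the effectors, Iigp1 fell furthest. Its brighter probe set read 2321.7 and 2227.5 in WT and 373.6 and 401.4 in KO. The KO mean was 17.0% of the WT mean, a fold of 5.68 (log2 difference -2.51, SE 0.16, limma adjusted p = 2.17e-54), and this was the lowest of all 6389 tested differences. The second Iigp1 probe set read 1075.9 and 939.6 in WT and 155.7 and 195.3 in KO. It gave 17.4% and a fold of 5.36 (log2 difference -2.42, SE 0.14), the next lowest of all. Its KO replicate 1 signal was close to the highest antisense control of that array, 150.1. Its identifier carries the suffix f, which the maker of the array uses for probes that may match relatives of a gene. Both Iigp1 probe sets gave nearly the same ratio, but other members fell too, and whether relatives add to the signal was not tested.

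Tgtp1/Tgtp2 had the next largest fall after Iigp1. It read 1971.4 and 1832.7 in WT and 646.4 and 723.8 in KO, so that neither KO array came near a WT array. The KO mean was 36.0% of the WT mean, a fold of 2.74 (log2 difference -1.45, SE 0.16, limma adjusted p = 2.18e-17), and the difference ranked 5 among all tested. Ifi47 read 1670.2 and 1567.9 in WT and 793.3 and 881.7 in KO. Its KO mean was 51.7% of WT, a fold of 1.92 (log2 difference -0.94, SE 0.16, limma adjusted p = 3.30e-07), at rank 31.

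The 3 regulators fell too, with differences between -1.03 and -0.59. Igtp read 655.6 and 613.9 in WT and 273.4 and 335.4 in KO, which put the KO mean at 48.0% of WT (fold 2.04, log2 difference -1.03, SE 0.14, limma adjusted p = 2.48e-11, rank 21). Irgm2, its neighbour on the chromosome, read 890.2 and 947.3 in WT and 430.3 and 540.9 in KO, or 52.9% of WT (fold 1.87, log2 difference -0.91, SE 0.15, limma adjusted p = 1.87e-07, rank 36). Irgm1 read 843.5 and 730.2 in WT and 460.5 and 575.9 in KO. Its KO mean was 65.9% of WT (fold 1.51, log2 difference -0.59, SE 0.15, limma adjusted p = 0.0032, rank 70), the smallest fall of the 7. The lower WT array of Irgm1 exceeded the higher KO array by 0.33 on the log2 scale, while the KO arrays differed from each other by 0.31, so the groups were separated by little more than their own spread.

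**Figure D2:**
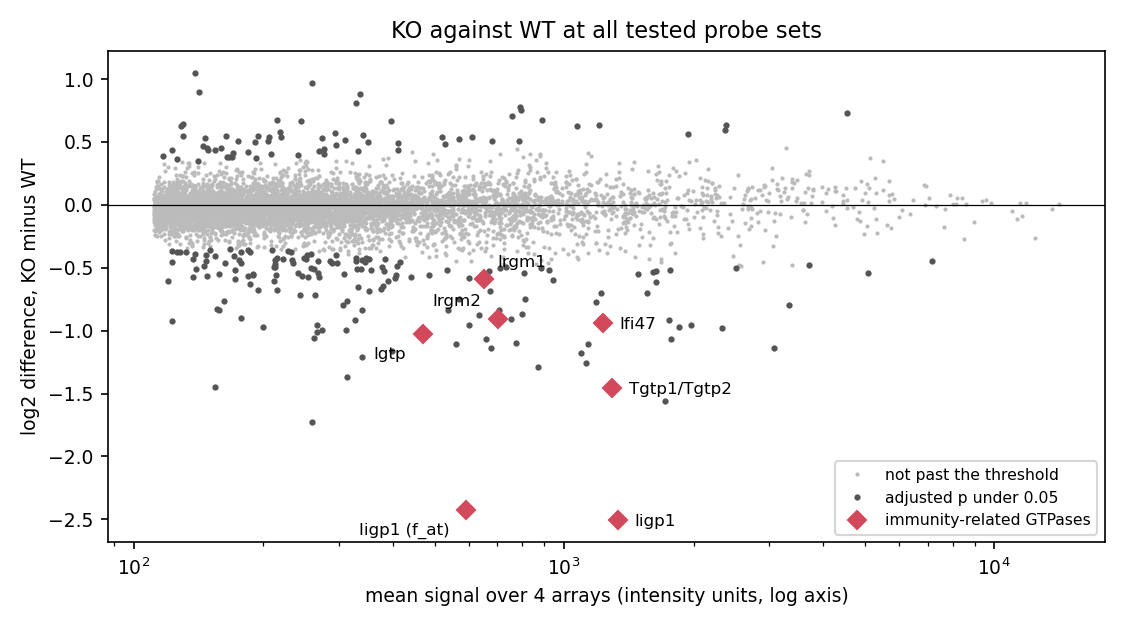
Log2 difference, KO minus WT, against mean signal over the 4 arrays (intensity units, log axis) for the 6389 tested probe sets; grey points missed the threshold, dark points had an adjusted p under 0.05, and red diamonds are the 7 family probe sets. The 2 Iigp1 diamonds, at -2.51 and -2.42, lie below every other point, and Irgm1, at -0.59, lies nearest to the grey band.

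The order of the falls, from Iigp1 through Tgtp1/Tgtp2, Igtp, Ifi47 and Irgm2 to Irgm1, separated Iigp1 from the rest and left most neighbours within each other's error. The 95% interval of Iigp1 (-2.81 to -2.20) did not meet that of Tgtp1/Tgtp2 (-1.76 to -1.14). Those of Igtp (-1.30 to -0.76), Ifi47 (-1.25 to -0.63) and Irgm2 (-1.20 to -0.61) met one another and that of Tgtp1/Tgtp2. The interval of Irgm1 (-0.88 to -0.30) met those 3 and not that of Tgtp1/Tgtp2. Within arrays, the log2 signal of Iigp1 minus that of Irgm1 was 1.44 and 1.59 in WT and -0.29 and -0.50 in KO, a shift of -1.91. The shift of Iigp1 was -1.60 against Irgm2, -1.57 against Ifi47, -1.48 against Igtp and -1.05 against Tgtp1/Tgtp2. The WT and KO arrays did not overlap in any of these 5 differences, each with an exact two-sided permutation p of 0.33 (0.33 after adjustment over the 5), the smallest that 2 arrays against 2 can give. The within-array differences were therefore larger than the spread between replicates and could not pass a test of this size.

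The KO arrays differed from each other more than the WT arrays did at all 7 probe sets. KO replicate 2 was the higher at all 7, by 0.10 to 0.32 on the log2 scale, and at 71.03% of all tested probe sets. Probe sets of like brightness shared this: in the 3 brightest deciles of tested probe sets, which hold all 7, KO replicate 2 exceeded KO replicate 1 by medians of 0.18 to 0.21. After quantile normalization KO replicate 2 was the higher at 4 of the 7. Between the WT arrays the members moved the other way from like-bright probe sets. Replicate 2 was below replicate 1 at 6 of 7 (the exception was Irgm2), and at 46.77% of all tested probe sets. The differences of the members ran from -0.20 to 0.09, whereas the medians of the same 3 deciles were 0.05 to 0.07. The gap between the lower WT and the higher KO array exceeded the spread within either genotype at all 7 probe sets. The shares of all tested probe sets with such a gap, or with KO arrays further apart than WT arrays, were not counted.

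The calls of the smaller falls depended on which arrays were in the fit. Without WT replicate 1, 5 of the 7 probe sets passed (0.845% of all were then called lower), with Irgm1 (limma adjusted p = 0.9997) and Ifi47 (0.21) missing the threshold. Without WT replicate 2, 4 passed (0.751% of all), and Irgm1 (limma adjusted p = 0.48), Irgm2 (0.12) and Ifi47 (0.12) missed it. Without KO replicate 1, 6 passed (1.94% of all), with Irgm1 at limma adjusted p = 0.051, and without KO replicate 2 all 7 passed (4.46% of all). Iigp1, Tgtp1/Tgtp2 and Igtp passed in all 4 of these fits. The log2 difference of Irgm1 ran from -0.75 to -0.44 over them and that of Ifi47 from -1.01 to -0.86, and every fit kept the direction. When a WT array is left out, the spread is estimated from the more discordant KO pair alone: the SE of Ifi47 was then 0.31, against 0.16 with all arrays and 0.14 without a KO array.

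**Figure D3:**
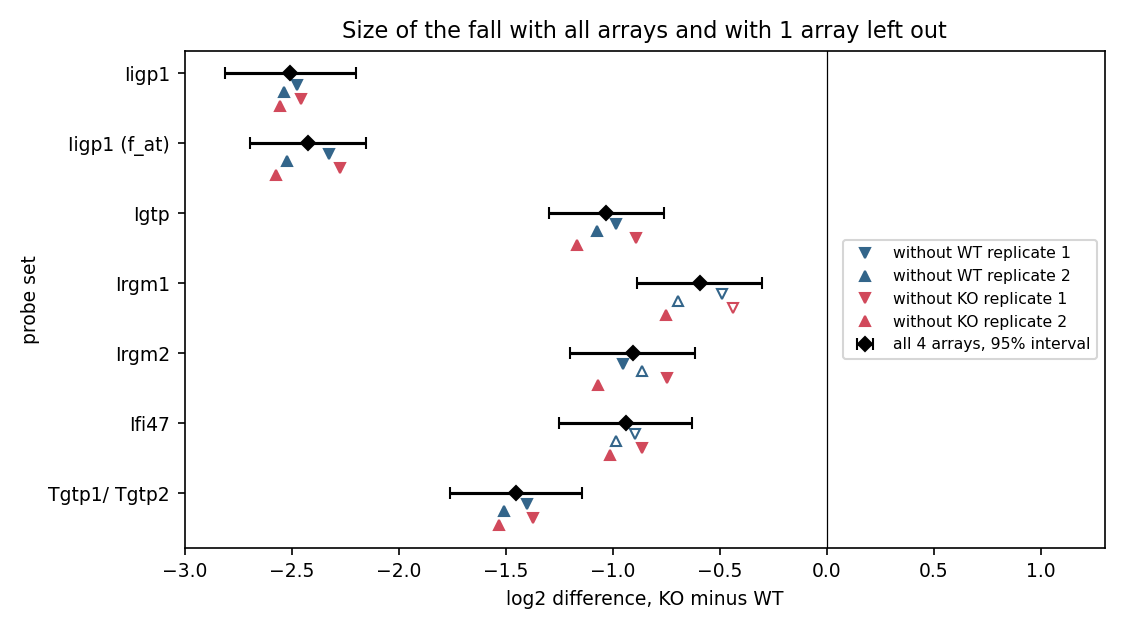
Log2 difference, KO minus WT, of each probe set with all 4 arrays (black diamonds, bars the 95% interval) and with 1 array left out (blue triangles a WT array, red triangles a KO array; filled where the adjusted p was under 0.05, open where not). All points lie below 0; the open symbols belong to Irgm1, Irgm2 and Ifi47.

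The very small p-values rest on a spread shared among probe sets of like signal, because limma estimated no variation of the spread beyond that trend. With each probe set's own spread, limma called 0 of the 7 after adjustment, and 0 of 6389. At an unadjusted p of 0.05 that fit passed 6 of the 7 family probe sets, all lower in KO, and 388 of all in either direction (6.07%). The p-values of the 7 in that fit ran from 0.00053 to 0.087. In the other fits all 7 passed, where the share of all probe sets called lower was 3.90% after quantile normalization, 2.03% after median centring, 2.27% without a filter, 2.58% with the filter on linear means and 3.24% with a filter at the 60th percentile. It was 2.55% and 2.54% with pseudocounts of 1 and 64, 3.27% without the trend, 2.61% with robust moderation and 5.29% with the replicate number as a block.

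Other GTPase genes of the interferon response fell as well. Of 17 listed, 6 had values and 3 passed the signal filter; all 3 fell, with a median log2 difference of -1.14, where 2.66% of the 5002 tested genes fell and 1.06% rose. They were guanylate-binding protein genes, whose products coat the same vacuoles. Gbp3 read 1607.8 and 1433.8 in WT and 625.2 and 704.5 in KO (log2 difference -1.17, limma adjusted p = 1.42e-11). Gbp7 (-1.13) and Gbp2 (-1.14) gave nearly the same difference, which lay between those of Tgtp1/Tgtp2 and Igtp; Gbp2 missed the threshold without WT replicate 1 (log2 difference -1.08, limma adjusted p = 0.073). Below the filter, Gbp2b read 112.1 and 120.2 in WT and 60.9 and 55.7 in KO, and the antiviral gene Mx1 read 93.9 and 104.9 in WT and 51.4 and 57.5 in KO. Mx1 and Mx2 lay below the antisense median on every array.

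Some genes of the interferon-γ signalling list were lower, namely Irf1, Irf8, Jak2, Socs1 and Ciita. Of 13 listed, 11 had values (Irf2 was among those not analysed here) and 8 were tested: 5 fell, 0 rose and 3 did not pass, with a median log2 difference of -0.56. Irf1, a transcription factor gene of the IRF family, read 2591.5 and 2630.2 in WT and 1221.4 and 1460.1 in KO (fold 1.94, log2 difference -0.96, limma adjusted p = 2.03e-07). Irf8, a myeloid factor that pairs with IRF1, fell by 0.97 on the log2 scale and Jak2, a receptor-bound kinase, by 0.56. Jak2 was dim in KO, at 104.0 and 129.7, and its KO replicate 1 signal lay below the antisense median of that array, 111.4. Socs1, a feedback inhibitor, fell from 478 ± 23.3 to 199.2 ± 33.5 (log2 difference -1.21, limma adjusted p = 1.05e-18), and Ciita, the class II transactivator, fell by 0.55. The receptor chains Ifngr1 (log2 difference 0.18, limma adjusted p = 0.83) and Ifngr2 (0.09, limma adjusted p = 0.9997) and the kinase Jak1 (-0.20, limma adjusted p = 0.93) did not pass. The Ifng probe set itself read 32.3 and 38.3 in WT and 24.4 and 26.4 in KO, below the antisense median of every array. The fallen genes numbered 3 without WT replicate 1, where Irf1 (limma adjusted p = 0.17) and Irf8 (0.079) missed the threshold, and 2 without WT replicate 2, where Irf1 (0.22), Irf8 (0.31) and Ciita (0.11) missed it. Their log2 differences in these fits stayed near those with all arrays, at -0.97 and -0.95 for Irf1, -1.06 and -0.89 for Irf8 and -0.51 for Ciita.

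Transcripts of some genes listed under type I interferon signalling were lower, and signalling itself was not measured. Of 10 genes listed, 9 had values (Stat2 was not analysed here) and 8 were tested: 3 fell, 0 rose and 5 did not pass, with a median log2 difference of -0.19. Isg15, a ubiquitin-like modifier, read 732.1 and 859.4 in WT and 365.5 and 442.9 in KO (log2 difference -0.95, limma adjusted p = 1.10e-08). Irf7, which amplifies type I interferon production, fell by 0.77, and Usp18, which removes Isg15 from proteins, by 0.44. Irf9, which acts at response elements, read 416.7 and 414.5 in WT, and 381.3 and 457.0 in KO, and missed the threshold. The receptor chain Ifnar2 had a log2 difference of -0.29 (limma adjusted p = 0.30). Ifnb1 lay below the antisense median on every array. Without WT replicate 1 only Isg15 passed (Irf7 had limma adjusted p = 0.25 and Usp18 0.55), and without WT replicate 2 0 of the 3 did (adjusted p from 0.087 to 0.92). Usp18 also missed the threshold without KO replicate 1 (0.19). In the fits that lost a call the log2 differences were -0.88 and -0.66 for Irf7, -0.47, -0.42 and -0.31 for Usp18 and -0.84 for Isg15.

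None of the tested autophagy genes passed. The conjugation machinery of autophagy and the Gabarap proteins are needed for effector GTPases to reach the right vacuole. Of 11 genes listed, 10 were tested: limma called 0 of them in either direction, 0 had an unadjusted p under 0.05 with or without moderation, and the median log2 difference was 0.08. Gabarap, the brightest of them, read 2476.0 and 2665.3 in WT and 2480.0 and 2840.0 in KO.

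**Figure D4:**
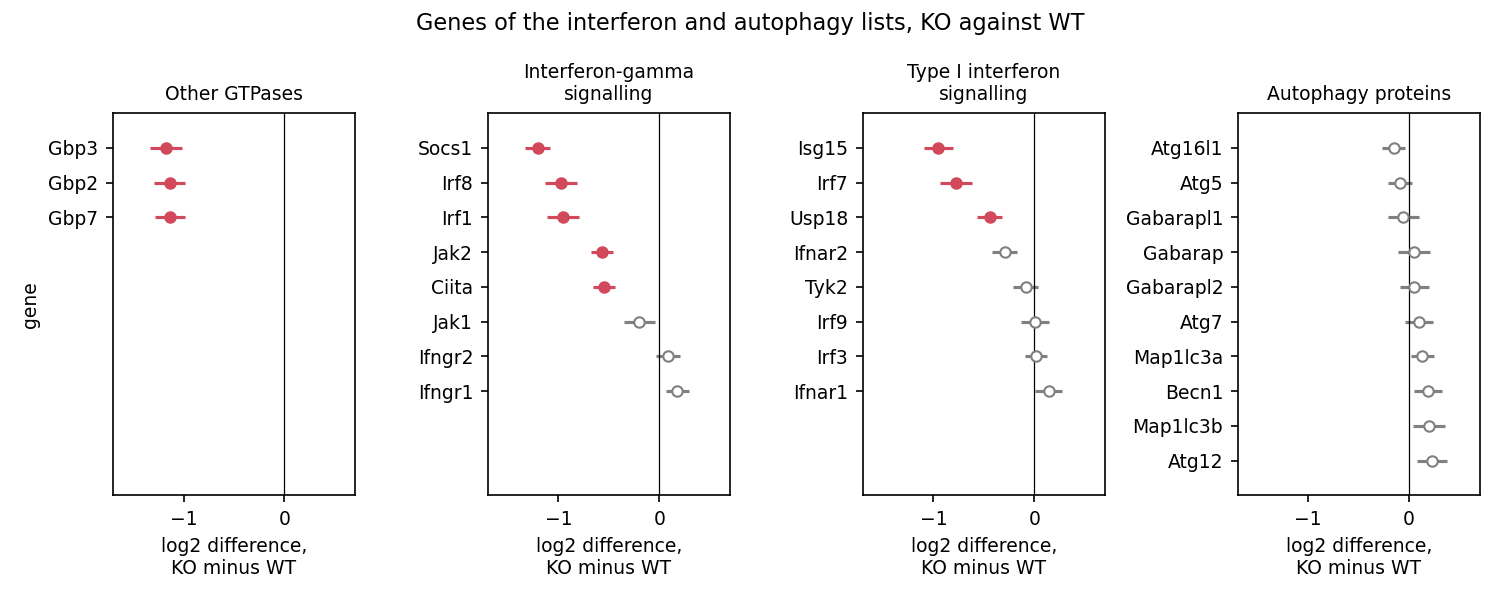
Log2 difference, KO minus WT (bars the SE), of the tested genes of 4 lists; filled red points had an adjusted p under 0.05. The red points, all to the left of 0, are 3 of 3 other GTPases, 5 of 8 interferon-γ signalling genes and 3 of 8 type I signalling genes, and the autophagy panel has 0 of 10.

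The genes outside the family with the most similar profile were sought among the 181 that passed the threshold, by the Euclidean distance over 4 arrays between each gene's log2 values, set to 0 at its WT mean, and the mean profile of the 6 members. The nearest were Gbp3 (distance 0.11), AW112010 (0.13), Socs1 (0.15), Gbp2 (0.16) and Ralgds (0.18). All 5 fell, with log2 differences from -1.29 to -1.14. The choice by distance sets this direction and approximate size, because the mean profile of the members was -1.35 and -1.13 on the KO arrays. The profiles share the genotype contrast and have only 4 points each.

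Markers of cells that can carry or make interferon signals were checked beside these falls. Of 8 macrophage markers tested, 1 fell (Mertk, log2 difference -0.63) and 0 rose, and 2 had an unadjusted p under 0.05: Mertk and Adgre1 (F4/80), which read 1429.2 and 1421.2 in WT and 1062.8 and 1212.8 in KO (log2 difference -0.32, limma adjusted p = 0.46). Their summed signal, most of it from Cd68 and Lyz2, was 20531 and 21058 in WT and 19743 and 22520 in KO. Of 10 markers of T and NK cells with values, the usual source of interferon-γ, 7 lay below the antisense median on every array (Cd3d, Cd3g, Cd247, Cd8a, Klrd1, Gzma and Prf1). The other 3 were brighter. Cd4 exceeded the highest antisense control on every array (163.8 and 166.8 in WT, 166.5 and 147.6 in KO). Cd3e (131.9 and 146.2 in WT, 167.4 and 147.1 in KO) exceeded the antisense median on every array. Il2rb (112.9 and 120.9 in WT, 114.9 and 102.4 in KO) lay below it on 1 array. The sum of the 10 markers was 885 and 929 in WT and 900 and 825 in KO, with 0 of 3 tested past the threshold and 0 at an unadjusted p of 0.05.

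The sums of 5 other marker lists did not overlap between the genotypes, while those of the macrophage, T and NK cell and eosinophil lists did. Single probe sets separate often as well: KO arrays lay wholly below WT arrays at 21.1% of those tested. The share wholly above was not counted. The sum of 6 B cell markers was 1149 to 1199 in WT and 1136 to 1148 in KO, that of 5 dendritic cell markers 1416 to 1446 and 1281 to 1381, and that of 6 mast cell and basophil markers 660.5 to 669.2 and 672.2 to 720.9. Below the antisense median on every array lay 1 of the 6 B cell, 2 of the 5 dendritic cell and 4 of the 6 mast cell and basophil markers. In these lists limma called 0 of 5, 0 of 3 and 0 of 2 tested, and 0 had an unadjusted p under 0.05. Of the tested B cell markers only Ighm was lower in KO (log2 difference -0.22). Cd79a (0.13), Ms4a1 (0.13), Pax5 (0.03) and Cd79b (0.01) were higher. Most of the dendritic cell sum came from Itgax, which overlapped between genotypes (970.8 and 985.7 in WT, 835.3 and 979.6 in KO). Tpsb2, the brightest mast cell marker, overlapped too (326.5 and 302.2 in WT, 346.8 and 321.2 in KO). The sum of 9 neutrophil markers was 1314 to 1377 in WT and 1143 to 1144 in KO, with 5 of 9 below the antisense median, Ly6g included. Of the 3 tested, S100a8 fell (516.9 and 542.2 in WT, 330.8 and 370.2 in KO) and was the only gene with an unadjusted p under 0.05. Without S100a8 the neutrophil sums overlapped, at 796.9 and 834.4 in WT and 811.7 and 773.8 in KO. The KO means of Ly6g, Ngp and Cxcr2 were above those of WT (log2 differences 0.15, 0.10 and 0.10, none past the threshold). Those of Mpo (-0.19), Elane (-0.13), S100a9 (-0.08), Camp (-0.06) and Ltf (-0.03) were below, and none of them passed either. The sum of 8 fibroblast and mesothelial markers was 1954 to 1999 in WT and 2496 to 2844 in KO, with 2 of 8 below the antisense median. Of the 5 tested, Dcn rose (log2 difference 0.75), and 4 had an unadjusted p under 0.05, all higher in KO: Dcn, Col1a2 (0.37), Pdgfra (0.29) and Col3a1 (0.27). Without Dcn that sum was 1382 to 1393 in WT and 1550 to 1784 in KO. The part of these cells in the falls of the family was not tested. Of 3 eosinophil markers with values 1 was tested, with 0 calls and 0 at an unadjusted p of 0.05.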

How the data were processed

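The authors deposited linear intensity values, 1 for each probe set on each array; no label or header used here states the summarisation, background correction or scaling. Among 12488 rows, 1780 were blank and 59 were controls with values, which left 10649 probe sets. The platform annotation names 1 gene for 9389, several for 341 and none for 919. Array medians on the log2(intensity + 16) scale differed by less than 0.1, so no scaling was added. Tested were the probe sets whose mean log2 value exceeded the 40th percentile (signal 111), using limma 3.58.1 in R 4.3.3 (lmFit, eBayes with intensity trend; 12778 total degrees of freedom), two-sided, adjusted p under 0.05. A gene was represented by its brightest probe set. The number of arrays limits the precision.

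The members and gene lists were chosen with earlier results of these data known. All members were named, and, per list, the 4 called genes with the smallest p and the brightest gene that did not pass; other list genes and markers were named after their values were seen, as was the check of the lists under each setting. A planned promoter motif is not reported here. Code was tested on simulated data. Permutation tests used scipy 1.17.1, and figures matplotlib 3.10.9 in Python 3.11.15.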

Additional observations from a re-analysis of the deposited data

How the results depend on the processing

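All 119 values of a member probe set under the 17 alternatives gave a lower KO value, and 106 of them kept the call. The filter, the variance settings, the replicate block and the calling rules leave the log2 difference as in the main fit. The direction could not change under those, and an adjusted p of 0.1 could not lose a call. The filter was first run on the mean of the linear values, which called 232 probe sets and all 7 members; the mean of the log2 values was made the main setting after both counts were seen. Normalization, filter, pseudocount, an adjusted p of 0.1, the 1.5-fold rule, trend and robust settings called all 7 members; keeping single-gene probe sets left 6 of 6. Without variance moderation 0 members and 0 probe sets were called, the log2 differences being those of the main fit: -2.51 and -2.42 (Iigp1), -1.03 (Igtp), -0.59 (Irgm1), -0.91 (Irgm2), -0.94 (Ifi47) and -1.45 (Tgtp1/Tgtp2). With 1 array left out, members called ranged from 4 to 7 and all calls from 54 to 327 (227 with all arrays). The log2 differences then ranged from -2.56 to -2.46 and -2.57 to -2.27 (Iigp1), -1.17 to -0.89 (Igtp), -0.75 to -0.44 (Irgm1), -1.07 to -0.75 (Irgm2), -1.01 to -0.86 (Ifi47) and -1.53 to -1.37 (Tgtp1/Tgtp2). The lone array of a genotype is then assumed to vary like the other genotype. The 5 within-array differences stayed negative in all 45 alternatives, although median centring cannot alter a difference within an array. Of all probe sets, quantile normalization called 419, 170 of them higher (40.6%, against 28.6% as deposited), and the 1.5-fold rule 90; the cause of the former was not tested. With the replicate number as a block, 480 were called and all 7 members kept their call; differences between replicates correlated between genotypes (r = 0.42 across probe sets, which are not independent), and the labels do not say that the numbers pair arrays. Counts without moderation were 0 for each interferon list, and without a filter 6 other GTPases were tested in place of 3 and 5 fell, the additions being Gbp2b and Mx1.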
